A study of Mus musculus with 26 samples.

Results

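Connexins are the proteins of gap junctions, and 6 connexin genes known from brain cells are described here: Gja1 (connexin 43), Gjb6 (connexin 30) and Gjb2 (connexin 26), associated with astrocytes, Gjb1 (connexin 32) and Gjc3 (connexin 29), associated with oligodendrocytes, and Gjd2 (connexin 36), associated with neurons. They were found by matching the Ensembl identifiers of the count table to these mouse symbols, and all 6 matched, among 27501 identifiers. Connexins assemble into hexameric hemichannels, and the hemichannels of neighbouring cells dock to form a channel that passes ions and small molecules. Astrocytes are coupled to each other and to oligodendrocytes in this way, which is thought to help clear potassium and distribute metabolites. Connexin 36 forms most electrical synapses between mammalian neurons, and loss of connexin 32 causes an inherited neuropathy of myelinating Schwann cells.

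The mice were 6 to 12 weeks old, and RNA of the whole brain was sequenced in 7 groups and 26 libraries. Every nuclear library came from a transgenic line carrying a fusion of enhanced green fluorescent protein with the ribosomal protein Rpl10a. The transgenes, all on a B6.FVB background, were Tg(Snap25-EGfp/Rpl10a)JD362Htz in the neuron line, Tg(Aldh1L1-EGfp/Rpl10a)JD130Htz in the astrocyte line and Tg(Cnp-EGfp/Rpl10a)JD368Htz in the oligodendrocyte line, so the labelled cells are those in which sequences of Snap25, Aldh1l1 or Cnp drive the fusion. Each line gave 4 libraries of sorted nuclei and 4 of presort nuclei, a mixture of cell types taken before the sort, each set from 2 females and 2 males, with 1 mouse per library. The cytoplasmic group held 2 whole-brain libraries, 1 from a male of the astrocyte line and 1 from a female of the oligodendrocyte line. There was no group without a transgene.

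Total counts ranged from 134357 (sorted astrocyte replicate 30) to 4461568 per library, and 3 counts corresponded to between 0.672 and 22.3 CPM (counts per 1000000 counts of the library). Sorted oligodendrocyte replicate 36 stood apart, since only 7674 genes had a count there, whereas replicates 10, 12 and 34 had 16223 to 16575. Where leaving it out changed a call, turned an order or moved a called value by over 1.5 times, the value without it is given. The 8 neuron markers summed to 6068 to 8151 CPM in sorted neuron nuclei, 1904 to 2836 CPM in sorted astrocyte nuclei and 933 to 2780 CPM in sorted oligodendrocyte nuclei, and 1 of the 8 rose with sorting in the neuron line. The 9 astrocyte markers summed to 16951 to 27048 CPM in sorted astrocyte nuclei and 705 to 1036 CPM in sorted neuron nuclei. The 9 oligodendrocyte markers summed to 36403 to 50853 CPM in sorted oligodendrocyte nuclei and to at most 1949 CPM in the other sorted types. Markers of ependyma and choroid plexus were also present in sorted astrocyte nuclei, at 699 CPM in replicate 6 and 5513 to 7761 CPM in replicates 8, 30 and 32, against at most 201 CPM in the other sorted types. Their part in the astrocyte values of the connexins was not tested.

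The promoters of the 5 glial connexins are shown because these genes differed most between the sorted types. Each line holds the 250 bases before a transcript start in RefSeq (GRCm38.p6), read in the direction of the gene, with motif matches in capitals. A total of 5 motifs were searched on both strands, which are the TATA box (TATAAA), the GC box (GGGCGG), the AP-1 site (TGANTCA), a SOX core (ACAANG) and the NFI palindrome. Gja1 is shown at chr10:56377050-56377299 (+ strand), Gjb6 at chr14:57133612-57133861 (- strand), Gjb2 at chr14:57104703-57104952 (- strand), Gjb1 at chrX:101383482-101383731 (+ strand) and Gjc3 at chr5:137963099-137963348 (- strand).
Gja1: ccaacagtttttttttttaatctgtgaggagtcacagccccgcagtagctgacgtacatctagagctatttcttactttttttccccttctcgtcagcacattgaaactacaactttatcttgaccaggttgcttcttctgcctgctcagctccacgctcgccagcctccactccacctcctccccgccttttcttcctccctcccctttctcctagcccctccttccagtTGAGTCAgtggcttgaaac
Gjb6: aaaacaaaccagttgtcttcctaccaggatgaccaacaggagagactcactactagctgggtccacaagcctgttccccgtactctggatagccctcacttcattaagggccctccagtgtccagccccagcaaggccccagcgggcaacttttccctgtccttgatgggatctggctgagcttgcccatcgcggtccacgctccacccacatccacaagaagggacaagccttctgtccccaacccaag
Gjb2: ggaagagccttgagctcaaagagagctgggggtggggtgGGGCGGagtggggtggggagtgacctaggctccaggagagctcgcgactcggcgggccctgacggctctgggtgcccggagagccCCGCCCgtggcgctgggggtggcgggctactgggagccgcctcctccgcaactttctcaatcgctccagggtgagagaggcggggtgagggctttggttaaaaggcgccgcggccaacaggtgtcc
Gjb1: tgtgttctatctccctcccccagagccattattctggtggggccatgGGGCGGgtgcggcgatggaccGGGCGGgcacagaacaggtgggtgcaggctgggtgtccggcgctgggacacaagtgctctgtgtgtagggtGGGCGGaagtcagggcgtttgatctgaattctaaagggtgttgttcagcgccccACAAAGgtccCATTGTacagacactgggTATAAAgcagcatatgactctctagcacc
Gjc3: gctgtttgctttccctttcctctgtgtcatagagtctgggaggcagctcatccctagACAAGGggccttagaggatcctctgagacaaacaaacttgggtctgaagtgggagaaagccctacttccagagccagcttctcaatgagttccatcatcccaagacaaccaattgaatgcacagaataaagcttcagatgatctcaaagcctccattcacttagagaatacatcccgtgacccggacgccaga

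The Gja1 window held the AP-1 match TGAGTCA, 19 bases before the start. Gjb2 had 2 GC boxes, and Gjb1 had a TATA box 29 bases before the start, 3 GC boxes and 2 SOX cores. The Gjb1 window shown is 1 of 4 alternative starts in RefSeq. It had the most matches of them and was the only one with a TATA box. Of the others, 1 held a single SOX core (ACAAAG) and the rest held none of the 5 motifs. Gjc3 had a single SOX core, ACAAGG, and the Gjb6 window held none of the 5 motifs. Among 32851 windows of this length, 12.4% held the TATA box, 32.7% the GC box, 6.75% the AP-1 site, 36.3% the SOX core and 0.0365% the NFI palindrome. These matches describe the letters only. No member window held the NFI palindrome, which 12 windows in all contained.

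Gja1, whose protein is the main gap junction protein of astrocytes, lies on chromosome 10 from 56377330 to 56402513 (GRCm38, GENCODE M21). In sorted astrocyte nuclei it was at 905, 1872, 1055 and 2378 CPM (replicates 6, 8, 30 and 32), with a mean of 1553 ± 695 (SD, n = 4). In sorted neuron nuclei it was at 26.96, 14.2, 15.3 and 38.7 CPM, and in sorted oligodendrocyte nuclei at 20.3, 34.8, 113 and 30.8 CPM. Every astrocyte library lay above every neuron and oligodendrocyte library. The log2 fold change of neuron over astrocyte nuclei was -6.05 ± 0.63 (SE, adjusted p = 9.15e-06), and that of astrocyte over oligodendrocyte nuclei was 5.02 ± 0.60 (adjusted p = 2.19e-05). The latter was 5.82 without sorted oligodendrocyte replicate 34. Neuron and oligodendrocyte libraries overlapped, and their difference did not pass the threshold (-1.04 ± 0.52, adjusted p = 0.17). In these bulk samples, fewer cells of a type and less RNA per cell cannot be told apart. All adjusted p-values here come from edgeR's quasi-likelihood F test with Benjamini-Hochberg adjustment over all genes tested, with a threshold of 0.05.

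Gjb6, which encodes connexin 30, the second connexin of grey-matter astrocytes, lies on chromosome 14 from 57123303 to 57133611. It was at 693, 1361, 648 and 1107 CPM in sorted astrocyte nuclei (mean 952 ± 342, SD, n = 4). Sorted neuron nuclei held 15.3, 2.69, 4.96 and 19.2 CPM, and sorted oligodendrocyte nuclei 21.6, 46.4, 99.0 and 2.28 CPM. The astrocyte libraries again lay above all others, while neuron and oligodendrocyte libraries overlapped. Astrocyte nuclei exceeded oligodendrocyte nuclei by a log2 fold change of 4.54 ± 0.81 (adjusted p = 0.000712), or 5.37 without sorted oligodendrocyte replicate 34. The lower level in neuron than in oligodendrocyte nuclei did not pass (-1.99 ± 0.74, adjusted p = 0.0648). Without sorted oligodendrocyte replicate 36 it did (-2.36, adjusted p = 0.00231), and likewise without replicate 10 (-2.24, adjusted p = 0.0445) and with DESeq2 (adjusted p = 0.0465), over all genes tested.

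In sorted oligodendrocyte replicate 34, Gja1 and Gjb6 were at their highest for that type (113 and 99.0 CPM). The 9 astrocyte markers summed to 1903 CPM in that library, against 1172, 712 and 435 CPM in replicates 10, 12 and 36. Their part in these levels was not tested.

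Gjb2 encodes connexin 26, known from the cochlea, skin and leptomeninges as well as from astrocytes, and lies 18600 bases from Gjb6 on chromosome 14, from 57098600 to 57104702. Sorted astrocyte nuclei held 28.6, 62.5, 65.5 and 62.8 CPM (mean 54.9 ± 17.5, SD, n = 4), and sorted neuron nuclei 1.61, 0.768, 4.96 and 0.782 CPM. Sorted oligodendrocyte nuclei ranged widely, at 10.4, 24.4, 61.7 and 473 CPM in replicates 10, 12, 34 and 36. The value of replicate 36 rested on 414 counts and would be 258 CPM on the raw library total, while the neighbouring Gjb6 had 2 counts in the same library. Neuron nuclei were below astrocyte nuclei (log2 fold change -4.75 ± 1.09, adjusted p = 0.00475) and below oligodendrocyte nuclei (-6.08 ± 1.13, adjusted p = 0.00109). No neuron library reached any library of the other types. Without sorted neuron replicate 26, the highest of its type, these values were -5.60 and -6.99. The second was -6.72, -6.69 and -3.93 without sorted oligodendrocyte replicates 10, 12 and 36 in turn. Between astrocyte and oligodendrocyte nuclei no difference passed (-1.33 ± 0.92, adjusted p = 0.404), and the sign turned to 0.80 without replicate 36.

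Meningeal fibroblast markers (5 genes) summed to 32.4, 93.9 and 173 CPM in sorted oligodendrocyte replicates 10, 12 and 34, in the same order as Gjb2. In replicate 36, where Gjb2 was highest, these markers summed to 4.57 CPM, with 3 of the 5 at 0. In sorted astrocyte nuclei they summed to 66.6, 88.4, 111 and 212 CPM in replicates 6, 8, 30 and 32, and in sorted neuron nuclei to 4.61 to 12.9 CPM. Their part in the Gjb2 levels was not tested.

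**Figure D1:**
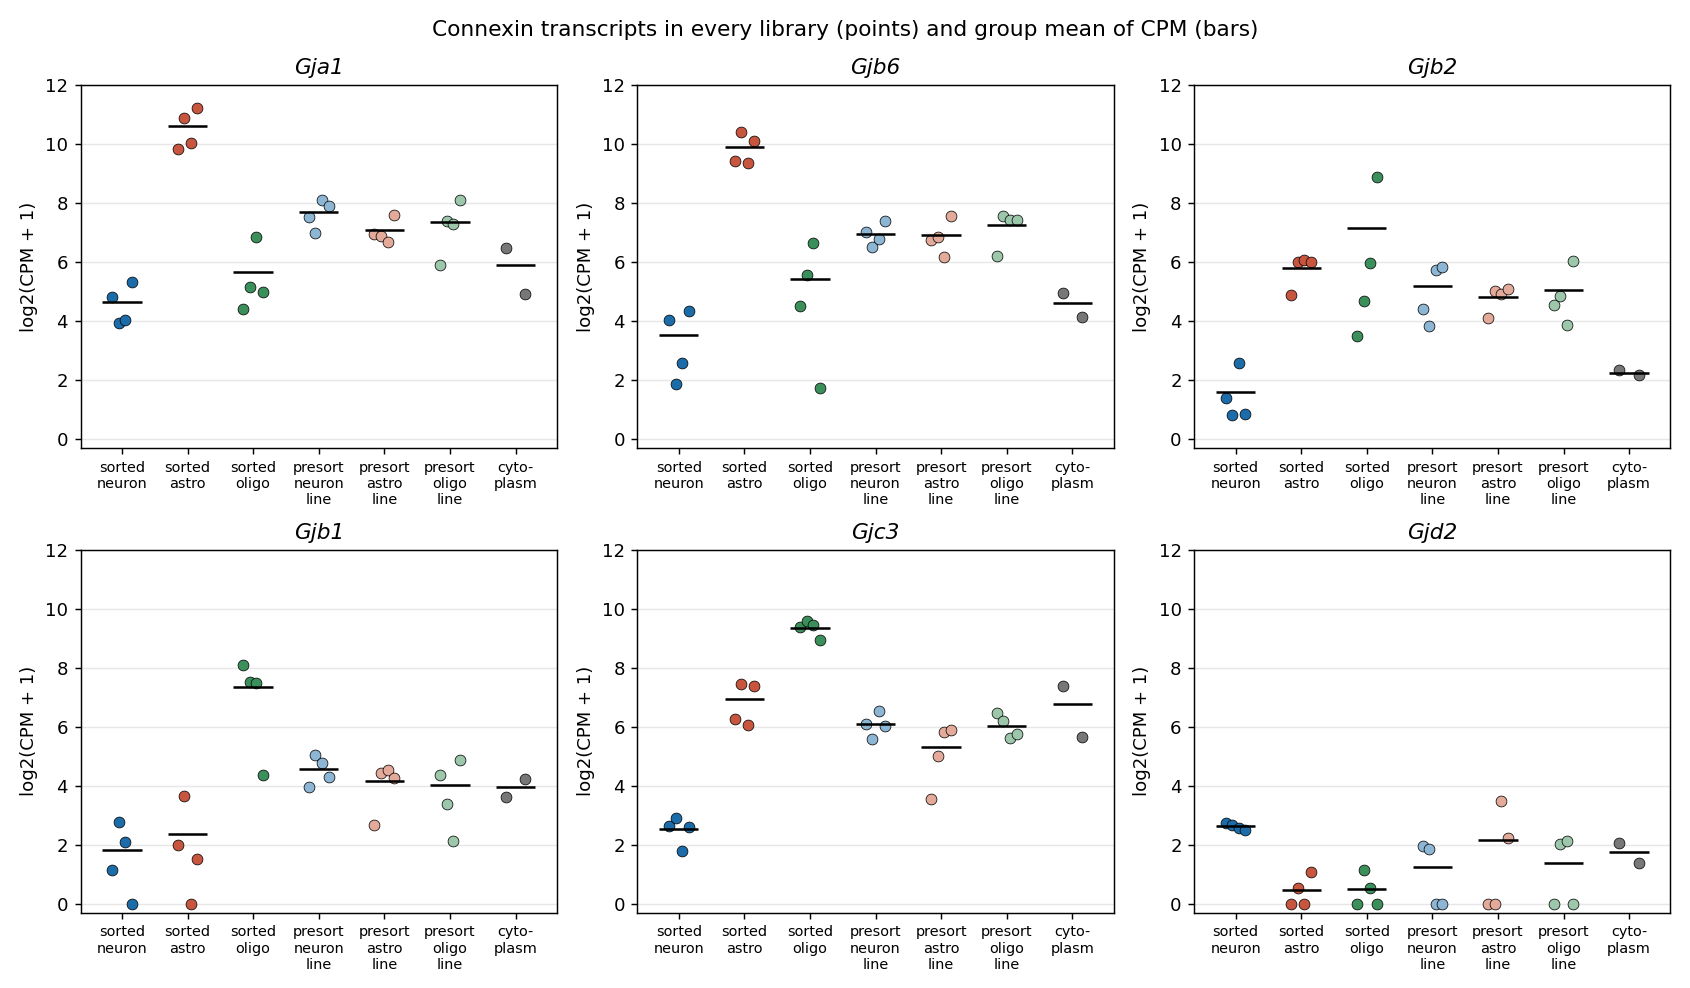
Each point is 1 library, plotted as log2(CPM + 1) on the vertical axis for the 7 groups on the horizontal axis, and each bar marks the group's mean CPM on that scale. Gja1 and Gjb6 stand highest in the 4 sorted astrocyte libraries, Gjc3 in the 4 sorted oligodendrocyte libraries, and Gjb2 at 473 CPM in sorted oligodendrocyte replicate 36 alone.

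Gjb1, which encodes connexin 32 of oligodendrocytes and Schwann cells, lies on chromosome X from 101376378 to 101385629. Sorted oligodendrocyte nuclei held 271, 182, 177 and 19.4 CPM (mean 162 ± 105, SD, n = 4), where the lowest value is that of replicate 36. Sorted neuron nuclei held 1.21, 5.76, 3.31 and 0 CPM, and sorted astrocyte nuclei 2.96, 11.6, 0 and 1.88 CPM. All oligodendrocyte libraries lay above all neuron and astrocyte libraries. Neuron nuclei were lower than oligodendrocyte nuclei (log2 fold change -5.88 ± 1.02, adjusted p = 0.000638), as were astrocyte nuclei (-4.96 ± 1.01, adjusted p = 0.00212). Without sorted neuron replicate 4 the first value was -6.64, and without sorted astrocyte replicate 8 the second was -6.10. Neuron and astrocyte nuclei overlapped and their difference did not pass (-0.92 ± 0.95, adjusted p = 0.614). Gjb1 passed the filter for low counts in this fit only through the oligodendrocyte libraries. Its higher level in oligodendrocyte nuclei was thus in part a condition for its being tested.

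Gjc3, which encodes connexin 29 of myelinating glia, lies on chromosome 5 from 137953461 to 137963098. It was at 666, 775, 697 and 487 CPM in sorted oligodendrocyte nuclei (mean 656 ± 122, SD, n = 4). Sorted astrocyte nuclei held 76.5, 175, 65.5 and 167 CPM (mean 121 ± 58.1), and sorted neuron nuclei 5.23, 6.53, 2.48 and 5.08 CPM (mean 4.83 ± 1.70). The 3 sorted types did not overlap: oligodendrocyte nuclei were highest, astrocyte nuclei intermediate and neuron nuclei lowest. All of its differences passed, at -7.02 ± 0.52 for neuron over oligodendrocyte nuclei (adjusted p = 2.08e-07), -4.65 ± 0.47 for neuron over astrocyte nuclei (adjusted p = 7.47e-06) and -2.36 ± 0.42 for astrocyte over oligodendrocyte nuclei (adjusted p = 0.000644). The 9 mature oligodendrocyte markers summed to 1338 to 1949 CPM in sorted astrocyte nuclei and 1285 to 1693 CPM in sorted neuron nuclei, and none of them passed between these types. Markers of oligodendrocyte precursors (5 genes) summed to 437 to 678 CPM in sorted astrocyte nuclei, 64.0 to 125 CPM in sorted neuron nuclei and 56.0 to 170 CPM in sorted oligodendrocyte nuclei. The part of either set of markers in the astrocyte level of Gjc3 was not tested.

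Gjd2, the connexin of electrical synapses, lies on chromosome 2 from 114009601 to 114013619. Its exons overlap those of A530058N18Rik on the other strand, and without strand information reads from the 2 genes cannot be told apart. Its counts were few, with 14, 14, 12 and 12 counts in sorted neuron nuclei (5.63, 5.38, 4.96 and 4.69 CPM, mean 5.17 ± 0.42). Sorted astrocyte libraries held 0, 1, 0 and 3 counts, and sorted oligodendrocyte libraries 0, 2, 1 and 0. No glial library reached the neuron libraries. Neuron nuclei were higher than astrocyte nuclei (log2 fold change 3.13 ± 0.85, adjusted p = 0.0142) and oligodendrocyte nuclei (3.45 ± 0.85, adjusted p = 0.00748). Gjd2 passed the filter for low counts in this fit only through the neuron libraries. A higher level there was thus in part a condition for its being tested.

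These fitted values rest on few counts. The summed counts per total gave a ratio of 10.7 for neuron over astrocyte nuclei (52 against 4 counts, exact 95% interval 3.93 to 40.7). Against oligodendrocyte nuclei the ratio was 16.0 (52 against 3 counts, 5.19 to 80.2). Both intervals cover counting error only. The neuron and astrocyte difference lost its call without sorted astrocyte replicate 6 (2.68, adjusted p = 0.0671) or replicate 8 (3.05, adjusted p = 0.0577), and was 4.21 without replicate 32. Against oligodendrocyte nuclei the value was 4.44 without sorted oligodendrocyte replicate 12. In the libraries of presort nuclei Gjd2 ranged from 0 to 10.2 CPM. The highest value, above every sorted neuron library, was that of presort astrocyte-line replicate 29. It rested on 37 counts in the deepest presort library (3274488 counts), while the other presort libraries held 0 or 1 count each. In cytoplasm Gjd2 was at 3.17 and 1.60 CPM. It was filtered out of every fit other than that of the sorted types.

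**Figure D2:**
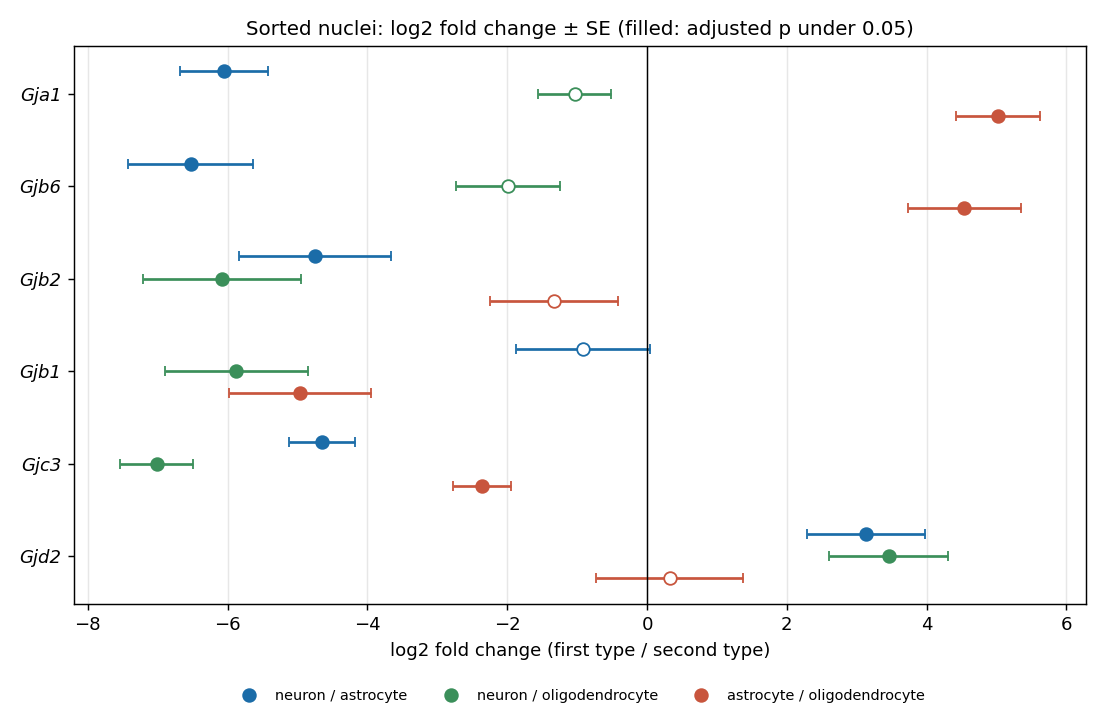
Points are log2 fold changes between sorted types on the horizontal axis with bars of 1 SE, for the 6 genes on the vertical axis, and filled points passed the threshold. Gja1 and Gjb6 lie far to the right for astrocyte over oligodendrocyte nuclei (5.02 and 4.54), Gjb1 and Gjc3 to the left (-4.96 and -2.36), and Gjd2 lies to the right for neuron nuclei over either glial type.

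In the neuron and astrocyte comparison, 5 of the 6 genes passed, 1 higher and 4 lower in neurons, where 19.4% of all 13029 tested genes passed, 8.02% higher and 11.4% lower. In the neuron and oligodendrocyte comparison 4 passed, 1 higher and 3 lower in neurons (background 23.1%, with 10.7% higher and 12.4% lower). The gene higher in neurons was Gjd2 in both, which entered this fit only through the neuron libraries. In the astrocyte and oligodendrocyte comparison 4 passed, 2 higher and 2 lower in astrocytes (background 17.1%, with 9.62% higher and 7.49% lower). Gjb1, counted as lower in neurons and in astrocytes than in oligodendrocyte nuclei, entered this fit only through the oligodendrocyte libraries. For Gjd2 and Gjb1 the direction was thus in part set by the filter. The median log2 fold changes of the 6 genes were -4.70, -3.93 and -0.50, beside 0.05, 0.16 and 0.11 for all genes tested. Each of these 13 differences had the same direction in males alone and in females alone. With 2 mice per type the females alone gave 1, 1 and 0 calls. Males alone, also with 2 mice per type, kept every call except Gjd2 between neuron and oligodendrocyte nuclei (3.31, adjusted p = 0.0506). Sorted astrocyte replicate 30 (134357 counts) and sorted oligodendrocyte replicate 36 (7674 genes with a count) are both from females. Their part in the lower number of female calls was not tested.

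Presort nuclei from the same lines served as the controls for sorting. In presort nuclei of the neuron, astrocyte and oligodendrocyte lines Gja1 averaged 204 ± 66.0, 134 ± 39.6 and 164 ± 86.6 CPM (SD, n = 4 each), and the libraries of the 3 lines overlapped. Gjb6 averaged 124 ± 33.8, 120.1 ± 48.9 and 150.1 ± 51.8 CPM, and Gjb2 35.6 ± 21.9, 27.4 ± 7.74 and 32.2 ± 22.4 CPM. For Gjb1 the means were 22.8 ± 7.62, 16.7 ± 7.74 and 15.2 ± 11.04 CPM, and for Gjc3 67.6 ± 18.3, 39.2 ± 22.8 and 64.8 ± 18.2 CPM. Presort depth was low, with a median of 260451 counts per library, so that a few counts decide the lowest of these values.

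In the neuron line all 5 tested genes fell with sorting, where 5.1% of all tested genes fell and 6.37% changed in either direction. Gjb2, Gjb1 and Gjc3 passed the filter for low counts in this fit only through the presort libraries. A fall was thus in part a condition for these genes being tested. The log2 fold changes were -3.21 ± 0.37 for Gja1 (adjusted p = 7.76e-05), -3.66 ± 0.49 for Gjb6 (adjusted p = 0.000259) and -4.17 ± 0.66 for Gjb2 (adjusted p = 0.00101). The oligodendrocyte genes fell as well, with -3.22 ± 0.72 for Gjb1 (adjusted p = 0.0128) and -3.89 ± 0.39 for Gjc3 (adjusted p = 1.86e-05). For Gjb1 the call was lost without presort neuron-line replicate 3 (-2.93, adjusted p = 0.0727).

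In the astrocyte line Gja1 rose by a log2 fold change of 3.39 ± 0.32 (adjusted p = 2.01e-07), Gjb6 by 2.87 ± 0.32 (adjusted p = 1.02e-06) and Gjc3 by 1.38 ± 0.39 (adjusted p = 0.00914). Gjb1 fell (-2.01 ± 0.60, adjusted p = 0.0135), a call that DESeq2 did not make (adjusted p = 0.0601). These 4 calls among 5 tested genes, 3 higher and 1 lower, stand beside 29% of all genes in this line, 13.7% higher and 15.2% lower. Gjb2 did not pass, with a log2 fold change of 0.74 ± 0.38 (adjusted p = 0.164). Without sorted astrocyte replicate 6, its lowest library, it passed (adjusted p = 0.0329).

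In the oligodendrocyte line 2 of 5 tested genes passed, both higher (background 8.35%, with 5.12% higher): Gjc3 rose by 3.20 ± 0.41 (adjusted p = 0.00166) and Gjb1 by 3.23 ± 0.82 on the log2 scale (adjusted p = 0.0335). The Gjb1 call was lost when any single presort library of the line was left out (adjusted p from 0.0715 to 0.112). Gja1 (-1.84 ± 0.67, adjusted p = 0.114) and Gjb6 (-1.99 ± 0.81, adjusted p = 0.157) were not called. Without sorted replicate 36 they were, at -1.71 (adjusted p = 0.0295) and -1.61 (adjusted p = 0.0171), and Gja1 also without sorted replicate 34 (-2.57, adjusted p = 0.0302). Gjb2 had a log2 fold change of 2.24 ± 1.14 (adjusted p = 0.265), which became -0.15 without that library.

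**Figure D3:**
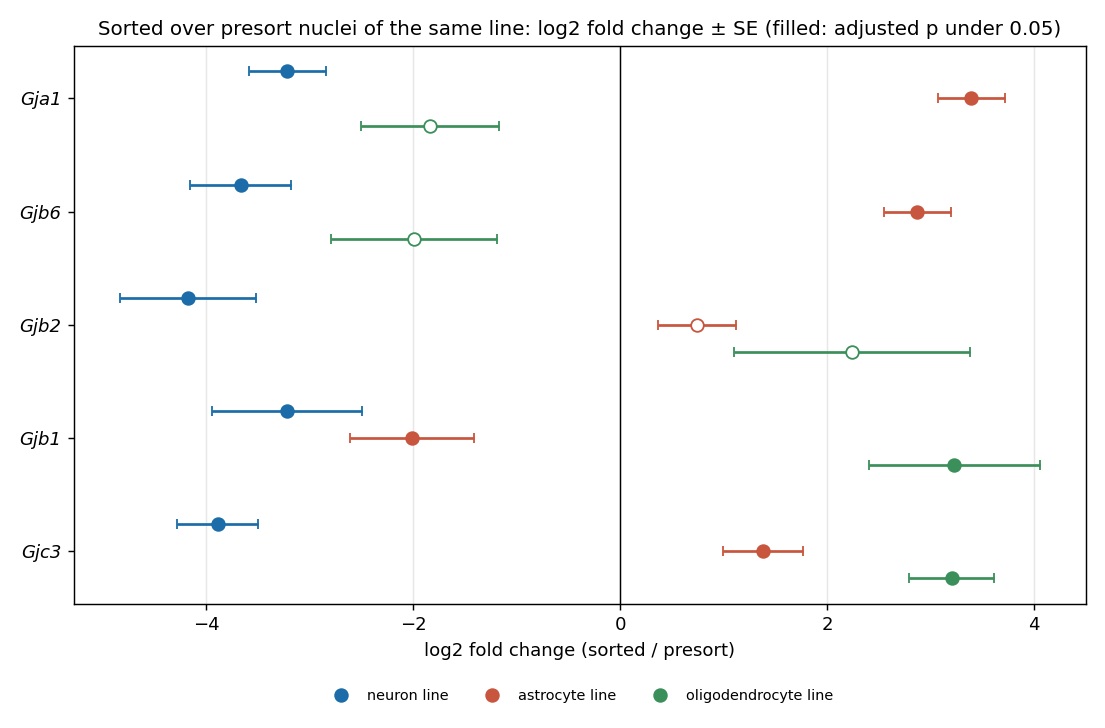
Points are log2 fold changes of sorted over presort nuclei on the horizontal axis with bars of 1 SE, for the 5 tested genes on the vertical axis and the 3 lines in colour, and filled points passed the threshold. All 5 genes lie below 0 in the neuron line, Gja1 and Gjb6 are highest in the astrocyte line (3.39 and 2.87) and Gjb1 and Gjc3 in the oligodendrocyte line (3.23 and 3.20).

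Whether the change with sorting differed between lines was tested by interaction terms over the 24 nuclear libraries. The astrocyte line exceeded the neuron line for 4 of 5 genes (background 14.2%, with 7.19% in that direction), by 6.56 ± 0.70 for Gja1 (adjusted p = 1.76e-07), 6.48 ± 0.87 for Gjb6, 4.93 ± 1.25 for Gjb2 and 5.27 ± 0.59 for Gjc3 on the log2 scale. The oligodendrocyte line exceeded the neuron line for 3 of 5 (background 16%, with 8.81% in that direction), by 7.12 ± 0.60 for Gjc3 (adjusted p = 1.59e-09), 6.50 ± 1.12 for Gjb1 and 6.39 ± 1.26 for Gjb2. Between the glial lines the astrocyte line had the larger change for Gja1 (5.18 ± 0.68, adjusted p = 2.4e-06) and Gjb6 (4.76 ± 0.84, adjusted p = 0.000137), and the smaller for Gjb1 (-5.30 ± 1.11, adjusted p = 0.00111) and Gjc3 (-1.85 ± 0.55, adjusted p = 0.0231), where 13.4% of all genes passed, 6.41% and 7.01% in the 2 directions. Without sorted neuron replicate 26 the Gjb2 values were 5.92 and 7.05, without sorted oligodendrocyte replicate 36 the second was 4.01, and without that library Gjb6 also passed between the oligodendrocyte and neuron lines (2.06, adjusted p = 0.0215). Gjb1 was at 7.22 without sorted neuron replicate 4 and at -6.27 between the glial lines without sorted astrocyte replicate 8. Without sorted oligodendrocyte replicate 34 the differences between glial lines were 6.15 for Gja1 and 5.73 for Gjb6. These 3 contrasts share libraries and are not independent of each other. The Gjc3 call between glial lines was the least firm of them, lost when any of 12 of the 24 libraries was left out (adjusted p from 0.0503 to 0.117) and at adjusted p = 0.0686 without the low-count filter.

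Gja1, Gjb6 and Gjb2 were compared within libraries, as ratios of counts, which do not depend on depth. In sorted astrocyte nuclei Gjb2 had 0.0384 ± 0.0161 counts per Gja1 count (SD, n = 4, range 0.0264 to 0.0621). In presort nuclei of the same line it had 0.214 ± 0.0748 (range 0.130 to 0.288), and the groups did not overlap. The exact two-sided permutation test gave p = 0.0286, the smallest that 4 against 4 libraries can give, and 0.0571 adjusted over the 2 ratios tested. Gjb6 per Gja1 differed less, at 0.643 ± 0.135 in sorted and 0.880 ± 0.131 in presort nuclei, and these groups overlapped (exact permutation test, p = 0.0857). Both ratios were chosen for testing after the values had been seen. Presort nuclei of the neuron and oligodendrocyte lines held 0.106 to 0.238 and 0.0870 to 0.381 Gjb2 counts per Gja1 count, and so also lay above the sorted astrocyte libraries.

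**Figure D4:**
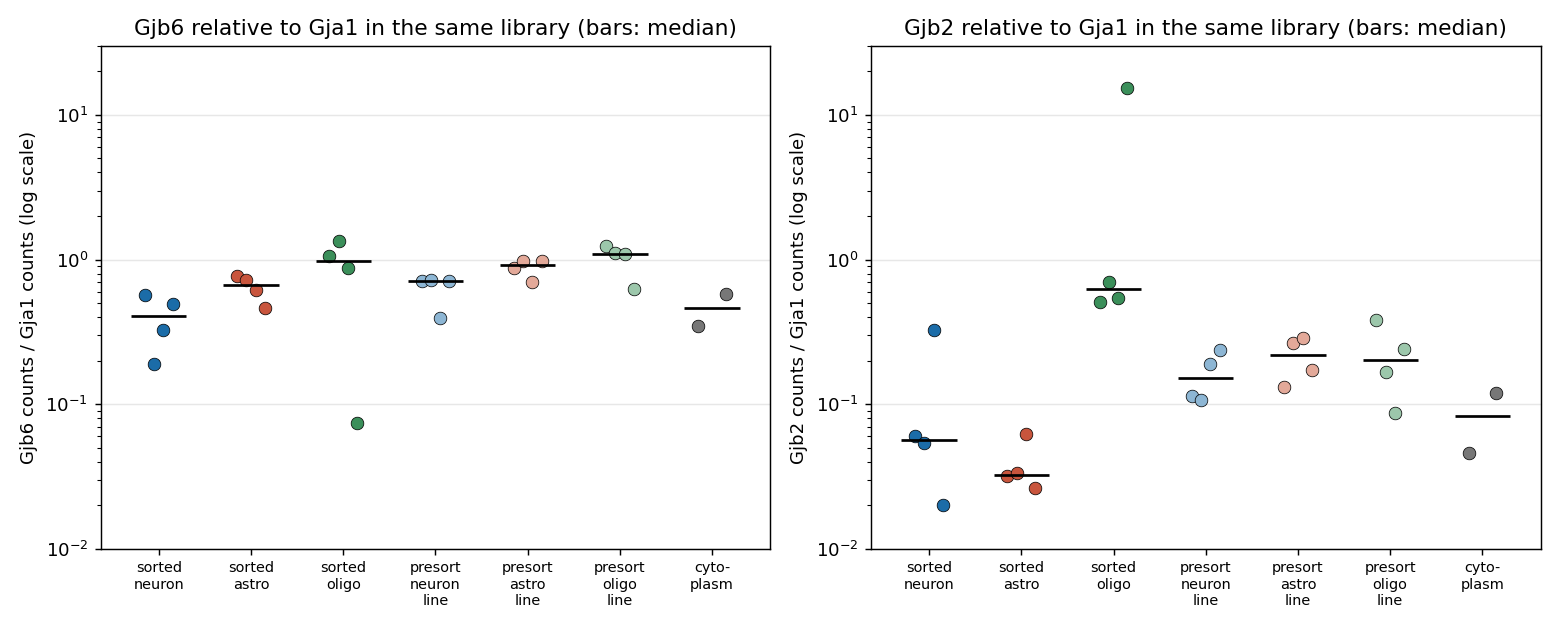
Points are the ratios of Gjb6 (left) and Gjb2 (right) counts to Gja1 counts in each library on a log axis, by group, and bars are group medians. Sorted astrocyte libraries lie at 0.0264 to 0.0621 for Gjb2, below all presort libraries, and sorted oligodendrocyte replicate 36 lies at 15.3.

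Levels of different genes were compared per kilobase of summed exon length. On this scale Gjb6 exceeded Gja1 in sorted astrocyte nuclei, at 356 ± 128 against 151 ± 67.8 CPM per kilobase (SD, n = 4), although Gja1 had more counts. The 6 genes' summed level there was 63.5% Gjb6, 27% Gja1, 4.96% Gjc3 and 4.07% Gjb2. In sorted oligodendrocyte nuclei it was 46.2% Gjc3, 29.2% Gjb1 and 18.2% Gjb2. Without replicate 36 these shares were 50.1%, 37.7% and 4.09%. In sorted neuron nuclei, where the total was small, Gjb6 made up 34.2%, Gja1 20.2% and Gjd2 15.6%.

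Whether reads in introns were counted is not given in the sources used here, so the levels were also divided by the whole gene span. Gjb6 still exceeded Gja1 in sorted astrocyte nuclei (92.4 against 61.6 CPM per kilobase of span). The order of Gjb1 and Gjb2 in sorted oligodendrocyte nuclei turned, to 17.6 and 23.3 CPM per kilobase of span, but only with replicate 36: without it they were at 22.7 and 5.27 CPM per kilobase of span. In sorted neuron nuclei Gjd2 then came first, with 29.5% of the sum.

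**Figure D5:**
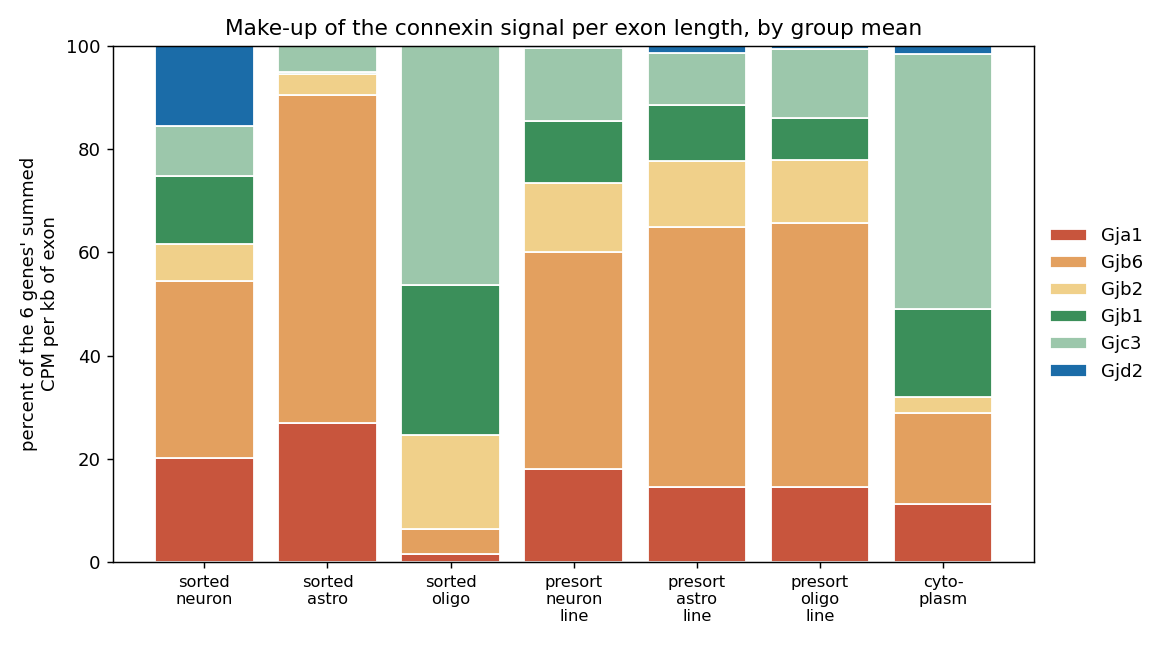
Bars show the percent of the 6 genes' summed CPM per kilobase of exon on the vertical axis that each gene makes up, from group means, for the 7 groups on the horizontal axis. Gjb6 and Gja1 fill most of the sorted astrocyte bar (63.5% and 27%), and Gjc3 and Gjb1 most of the sorted oligodendrocyte bar (46.2% and 29.2%).

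Nuclear and cytoplasmic RNA of whole brain were compared between the 12 presort and the 2 cytoplasmic libraries. In cytoplasm Gja1 was at 87.5 and 29.05 CPM, Gjb6 at 30.2 and 16.8 CPM and Gjb2 at 4.03 and 3.46 CPM. The astrocyte connexins were higher in presort nuclei, by a log2 fold change of 1.37 ± 0.48 for Gja1 (adjusted p = 0.0213), 2.32 ± 0.44 for Gjb6 (adjusted p = 0.000186) and 2.88 ± 0.61 for Gjb2 (adjusted p = 0.000557). The cytoplasm came from the astrocyte and oligodendrocyte lines, and against presort nuclei of these lines alone Gja1 (1.22, adjusted p = 0.0645) and Gjc3 (-1.15, adjusted p = 0.0606) were not called. Every cytoplasmic value of Gjb6 and Gjb2 lay below all presort values. Both genes passed the filter for low counts in this fit only through the presort libraries. Their higher level in presort nuclei was thus in part a condition for their being tested. Gjc3, at 166 and 49.8 CPM in cytoplasm, was lower in presort nuclei (-1.04 ± 0.41, adjusted p = 0.0387).

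All 4 tested genes thus passed, of which Gjb6 and Gjb2 entered the fit only through the presort libraries. But 50.5% of all tested genes passed as well, with 20.6% of all tested genes higher and 29.8% lower in nuclei. Markers of several cell types moved in the same comparison: 6 of 6 tested endothelial markers (median log2 fold change 4.60), 4 of 4 meningeal fibroblast markers and 3 of 3 mural markers were higher in nuclei, and 7 of 8 neuron markers were lower (median -2.23). Of the 9 astrocyte markers 2 were higher and 3 lower, and of the 9 oligodendrocyte markers 4 were lower. Their part in the connexin differences was not tested. The Gjc3 difference rested on cytoplasm replicate 1: without it the log2 fold change was 0.14. The Gja1 value was 2.43 without cytoplasm replicate 1, and its call was lost without replicate 2 (0.81, adjusted p = 0.19). The Gjc3 call was also lost without presort neuron-line replicate 3 or 27 (adjusted p = 0.0527 and 0.0613). With a lone cytoplasmic library, the fit assumes that it varies like the presort libraries. Gjb1 was not tested here, and its cytoplasmic values of 11.2 and 17.9 CPM lay within the range of presort nuclei, which was 3.41 to 31.7 CPM.

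By group mean, the order of groups was the same at the top for Gja1 and Gjb6, with sorted astrocyte nuclei apart from the next group. For Gjc3, sorted oligodendrocyte nuclei were apart from sorted astrocyte nuclei, and sorted neuron nuclei were apart from all groups above them. For Gjb2 and Gjd2 the libraries of the highest and the next group overlapped, and for Gjb1 sorted oligodendrocyte nuclei overlapped presort nuclei only through replicate 36, at 19.4 CPM.

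Among 17 other gap junction genes in the table (connexins and pannexins), only Panx2 passed the low-count filter of the sorted fit. Panx2, which encodes the large-pore channel pannexin 2, was at 109, 38.8, 43.4 and 27.8 CPM in sorted neuron nuclei and 10.9, 4.02, 6.55 and 5.27 CPM in sorted astrocyte nuclei. Sorted oligodendrocyte replicates 10, 12, 34 and 36 held 16.0, 14.0, 17.3 and 0 CPM. Its log2 fold change in neuron nuclei was 3.02 ± 0.82 over astrocyte nuclei (adjusted p = 0.0142) and 2.21 ± 0.74 over oligodendrocyte nuclei (adjusted p = 0.0407). In presort nuclei of the neuron, astrocyte and oligodendrocyte lines Panx2 averaged 67.0, 74.2 and 67.9 CPM, against 54.7 CPM in sorted neuron nuclei.

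A further 9 genes whose proteins bind, traffic or work beside connexins were in the table, and 8 were tested. In neuron against astrocyte nuclei 4 were lower and 0 higher, with a median of -1.70, where 11.4% of all tested genes were lower and 8.02% higher. Among them, Tjp1, the scaffold ZO-1 that binds the tail of connexin 43, was lower in neurons by a log2 fold change of -2.26 ± 0.44 (adjusted p = 0.00147). Hepacam (GlialCAM), a glial adhesion protein, was lower by -6.54 ± 0.51 (adjusted p = 1.07e-06), and Mlc1, a membrane protein of astrocyte endfeet, by -5.31 ± 0.72 (adjusted p = 7.43e-05). In neuron against oligodendrocyte nuclei 4 were also lower and 0 higher (median -0.94, background 12.4% lower and 10.7% higher), among them Tjp1 (-2.03 ± 0.44), Hepacam (-5.55 ± 0.49) and the chloride channel Clcn2 (-1.49 ± 0.43, adjusted p = 0.0186). Between astrocyte and oligodendrocyte nuclei 1 of the 8 was called, where 17.1% of all tested genes were. It was Mlc1, which was higher in astrocytes (5.15 ± 0.71, adjusted p = 7.81e-05).

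The genes most like each member were taken by Pearson's r of log2 CPM over the 12 sorted libraries, among 12797 tested genes. They share libraries and cell types with the members, so these values are descriptions only. For Gja1 they were Rbm47 (r = 0.985), Vcam1 and S1pr1 (0.984 each), and for Gjb6 Slc7a2 (0.986), Id3 (0.985) and Axl (0.984). A total of 308 genes for Gja1 and 338 for Gjb6 reached r of 0.9. For Gjc3 they were Gpr37 (0.984), Tmem98 and Ddx17 (0.981 each), among 119 genes at 0.9 or above.

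For Gjb1 the nearest were Atp8b1 (0.965), Secisbp2l (0.954) and Tmem125 (0.943), and for Gjb2 Gemin8 (0.968), Lpar6 (0.953) and Mterf4 (0.946). Only 38 and 36 genes reached 0.9 for these 2 members. Among the members themselves, Gja1 and Gjb6 were closest (r = 0.954), followed by Gjb2 and Gjc3 (0.754) and Gjb1 and Gjc3 (0.737). These likenesses changed without sorted oligodendrocyte replicate 36, over 11 libraries. Gjb2 then had r of 0.858 with Gjb6 and 0.788 with Gja1, against 0.414 and 0.522 with it. Gemin8 stayed nearest to Gjb2 (0.987) and Slc7a2 to Gjb6 (0.984), while for Gjb1 and Gjc3 other genes took all 3 places. The genes at 0.9 or above then numbered 519 for Gja1, 429 for Gjb6, 137 for Gjb2, 185 for Gjb1 and 230 for Gjc3. Gjd2 lay below 10 CPM in every sorted type and was given no list.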

How the data were processed

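Per the labels' protocols, RNA was isolated with Trizol and DNase, cleaned on MinElute columns (Qiagen) and turned into cDNA with NuGEN's Ovation V2 system. The deposited values are raw read counts for 27501 gene identifiers and GFP in 26 libraries, with no normalization. Trimmomatic, Bowtie2, STAR, bedtools and edgeR are named without versions, per the submitters' processing notes. Not given in the sources used here are the build, annotation, counted regions, strand setting and sorting method. The kit keeps no strand and adds no molecular identifiers.

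Symbols, coordinates and exon lengths came from GENCODE M21 (GRCm38), which held 26495 of the identifiers. CPM used library sizes scaled by TMM over 26 libraries. Tests used edgeR 4.0.16 in R 4.3.3 (quasi-likelihood F test, two-sided, TMM, filterByExpr with minimum count 10, Benjamini-Hochberg over all tested genes, threshold 0.05). SEs were derived from the fold change and F. The 12 sorted libraries, the 8 of each line, the 24 nuclear libraries (interactions) and the 12 presort with 2 cytoplasmic libraries were separate fits. Presort nuclei came from each mouse, per the design text, but titles give sorted and presort libraries different numbers, so they were fitted as independent. Alternatives were size factors by RLE, DESeq2 1.42.0, no filter, each library left out, sex as covariate, each sex alone, 1 fit of all nuclear libraries, and cytoplasm against matching lines. The fits were tested on simulated data. No replicates agreed within sampling noise (chi-square per degree of freedom at least 1.97). The members, gene lists and comparisons were chosen with earlier results of these data known. Named genes were the 6 members, other gap junction and partner genes that passed between sorted types, and the 3 genes with the highest r for each member of at least 10 CPM. Some genes that this rule names are not reported here.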

Additional observations from a re-analysis of the deposited data

Results flagged for a closer look

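In 36 gene and group pairs with 4 libraries, 4 had a library far from the other 3 by Dixon's ratio at its 95% critical value, where chance gives about 1 in 20. These were Gja1 in sorted oligodendrocyte replicate 34 (113 CPM), Gjb6 in presort oligodendrocyte-line replicate 9 (73.3 CPM, the lowest of its group), Gjb2 in sorted astrocyte replicate 6 (28.6 CPM, the lowest of its group) and Gjb2 in sorted oligodendrocyte replicate 36 (473 CPM).

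Of 15 interaction tests, 11 found a change with sorting that differed between lines. Of all tested genes, 14.2% passed for astrocyte minus neuron, 16% for oligodendrocyte minus neuron and 13.4% for astrocyte minus oligodendrocyte. These contrasts share libraries, so the tests are not independent. For the astrocyte minus the neuron line the log2 differences were 6.56 for Gja1, 6.48 for Gjb6, 4.93 for Gjb2 and 5.27 for Gjc3. For the oligodendrocyte minus the neuron line they were 6.39 for Gjb2, 6.50 for Gjb1 and 7.12 for Gjc3. For the astrocyte minus the oligodendrocyte line they were 5.18 for Gja1, 4.76 for Gjb6, -5.30 for Gjb1 and -1.85 for Gjc3. This Gjc3 call was lost when any of 12 libraries was left out. The Gjb2 value of 6.39 was 4.01 without sorted oligodendrocyte replicate 36.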

How the results depend on the processing

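The 35 called differences between sorted types, within lines and between lines kept their direction under every alternative in which the gene was tested. Gjb2 and Gjb1 in the neuron line and Gjb1 in the astrocyte line were tested in 11 alternatives, against 15 for Gjc3. Gjb1 in the oligodendrocyte line was tested in 12. Between neuron and glial nuclei Gjd2 was tested in 18 alternatives, against 19 for Gjc3. Counts of called members changed by over 1.5 times in these cases. Females alone gave 1, 1 and 0 calls in the neuron-astrocyte, neuron-oligodendrocyte and astrocyte-oligodendrocyte comparisons (4 in the last at an unadjusted p under 0.05), 2 for the astrocyte minus neuron line interaction and 1 for astrocyte minus oligodendrocyte. Males alone gave 3 calls in the neuron line. In the oligodendrocyte line there were 4 calls with DESeq2, 1 with sex as covariate, 4 in males alone, 0 in females alone (1 unadjusted) and 5 in the fit of all 24 nuclear libraries. Matching lines gave 2 calls against cytoplasm.

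Leaving out single libraries gave 4 to 5 calls in the neuron-astrocyte and neuron-oligodendrocyte comparisons and 4 to 4 between glial types. It gave 3 to 5, 3 to 4 and 1 to 4 in the neuron, astrocyte and oligodendrocyte lines. In some of these fits Gjb1, and in the neuron line also Gjb2, failed the low-count filter. A lower number of calls can thus mean genes no longer tested. Against cytoplasm it gave 3 to 4. For the interactions it gave 4 to 4 (astrocyte minus neuron) and 3 to 4 (both others).

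Directions turned for Gjb1 in neuron-astrocyte nuclei (0.25 without sorted astrocyte replicate 8, range over left-out libraries -1.68 to 0.25, and 0.041 in females) and for Gjb2 in astrocyte-oligodendrocyte nuclei (0.80 without sorted oligodendrocyte replicate 36, range -1.99 to 0.80, and 1.42 in males). For Gjd2 between glial types they became -0.75 without sorted astrocyte replicate 32, -0.19 without sorted oligodendrocyte replicate 10 (range -0.75 to 1.32) and -0.98 in males. Gjb2 in the oligodendrocyte line became -0.15 without replicate 36 (range -0.15 to 2.87) and -0.69 in males, and its glial interaction 0.99 (range -1.77 to 0.99) and 1.43. Gjc3 against cytoplasm became 0.14 without cytoplasm replicate 1 (range -1.62 to 0.14). The cause of these changes was not tested.

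DESeq2 moved the median of all genes in the oligodendrocyte line by -0.33 and lowered the share of its calls that were higher from 61.3% to 34.6%. No member's direction turned with DESeq2 or RLE. On raw library totals Gjb2 averaged 84.3 CPM and Gjc3 496 CPM in sorted oligodendrocyte nuclei, against 142 and 656. No paired analysis was possible because the groups compared share fewer than 2 replicate numbers in the titles, and the labels do not say which libraries came from the same mouse. Levels, shares and likenesses without sorted oligodendrocyte replicate 36 were computed after seeing the data. Presort depth and the few Gjd2 counts limit the lowest values.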
